A study of Mus musculus and Mus spretus with 72 samples.

Results

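The mouse genome encodes several large families of receptors for odours, pheromones and tastes. The genes examined here were those whose symbols begin with Olfr (olfactory receptors), Vmn1r and Vmn2r (the 2 classes of vomeronasal receptor), Tas1r and Tas2r (sweet, umami and bitter taste receptors), Taar (trace amine-associated receptors) or Mrgpr (Mas-related receptors of itch and pain neurons and of mast cells). Members were the probes assigned to a single such symbol, whatever their measured values: 209 of the 22089 probes on the array, for 203 genes. They comprised 140 Olfr, 29 Vmn1r, 15 Vmn2r, 15 Mrgpr, 6 Tas2r, 3 Tas1r and 1 Taar probes. All 209 matched a RefSeq gene of the same symbol, 201 of them protein-coding.

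Receptors of these families span the membrane 7 times and signal through G proteins. An olfactory sensory neuron expresses 1 olfactory receptor gene, and odour binding activates the G protein Golf, adenylate cyclase and a cyclic nucleotide-gated channel. Vomeronasal neurons signal through Gi or Go and the channel Trpc2, and taste cells through phospholipase C beta and Trpm5. The nose, the vomeronasal organ, the tongue and sensory ganglia are the main sites of expression, although single olfactory receptors are known from kidney, testis and other organs. None of the main sites was sampled here.

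RNA was measured on 72 spotted two-colour arrays, 24 each for brain, liver/kidney (1 combined sample in the labels) and testis. Each array compared 1 male mouse of about 12 weeks with a pool of 9 C57BL6 mice, the laboratory strain, from the same tissue. In each tissue there were 6 arrays of Mus musculus domesticus (dom), 6 of Mus musculus musculus (mus), 3 of Mus musculus castaneus (cas), 6 of a Mus musculus sub-species that the labels do not name (ssp) and 3 of Mus spretus (spretus), a separate species. No treatment was given in the labels. Values are log2 ratios of the mouse to the pool, after each array was centred on its median. The log base and the direction are not stated with the data; base 2 and mouse over pool were taken as likely, because the mouse was in the second channel, and every sign turns if the direction is inverted. Intensities were not analysed here, so a ratio does not show whether a transcript was present, and neither tissue identity nor receptor abundance could be read as a level. In these bulk samples fewer cells of a type and less RNA per cell cannot be told apart.

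The arrays fell into 4 sets that shared the same missing spots, of 46, 23, 2 and 1 arrays. These sets are a property of the values and are not named in the labels. In liver/kidney all dom, mus and ssp arrays were in set 1 and all cas arrays in set 2, with spretus in sets 2 and 3. There, cas or spretus against the other groups cannot be told apart from the array set. In brain all dom arrays were in set 1, all spretus in set 2 and cas in sets 2 and 3, while mus and ssp were split between sets 1 and 2. In testis all cas and spretus arrays were in set 2, ssp in set 1 and dom in sets 1 and 4. Only 2 testis mus arrays shared set 2 with cas and spretus. In brain and testis group and array set are therefore separate only in part. Each array carried every probe on 2 adjacent spots, and the median correlation of the paired spots was 0.56 across arrays (range 0.28 to 0.78). The brain array mus 08 was titled mus but labelled domesticus in its second channel; it was kept in mus.

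For 4 members on which the results turn, the 250 bases before the RefSeq start are shown to place the genes, in build GRCm38.p6 and all on the minus strand: Mrgprx1 at chr7:48027598-48027847, Tas1r3 at chr4:155863354-155863603, Olfr934 at chr9:38983043-38983292 and Olfr67 at chr7:103791831-103792080. Capitals mark exact matches, on either strand, to a homeodomain core (TAATTA) or a TATA box (TATAAA); these motifs do not overlap here.
Mrgprx1: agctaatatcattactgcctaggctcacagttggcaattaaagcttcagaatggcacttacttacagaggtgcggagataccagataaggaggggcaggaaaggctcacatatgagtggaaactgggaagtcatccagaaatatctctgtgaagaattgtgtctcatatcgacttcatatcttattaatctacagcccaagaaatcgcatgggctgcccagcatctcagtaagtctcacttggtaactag
Tas1r3: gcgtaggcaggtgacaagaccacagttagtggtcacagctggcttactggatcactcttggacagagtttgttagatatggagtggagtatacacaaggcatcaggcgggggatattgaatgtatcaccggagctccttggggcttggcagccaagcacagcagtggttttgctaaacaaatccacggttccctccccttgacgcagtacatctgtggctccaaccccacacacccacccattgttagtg
Olfr934: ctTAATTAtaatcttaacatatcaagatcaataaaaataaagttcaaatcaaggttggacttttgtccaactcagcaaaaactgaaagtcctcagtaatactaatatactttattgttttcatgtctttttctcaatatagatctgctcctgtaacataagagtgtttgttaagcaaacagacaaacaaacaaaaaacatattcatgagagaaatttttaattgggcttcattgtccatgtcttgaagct
Olfr67: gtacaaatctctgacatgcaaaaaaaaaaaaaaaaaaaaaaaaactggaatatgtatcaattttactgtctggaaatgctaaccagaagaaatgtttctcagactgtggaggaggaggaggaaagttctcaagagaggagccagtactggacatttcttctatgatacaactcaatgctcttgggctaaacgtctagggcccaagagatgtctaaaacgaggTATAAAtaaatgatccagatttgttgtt
RefSeq promoters were listed for 161 of the 203 genes. In this window TAATTA occurred in 13.5% of 163 member promoters and 4.84% of all 32851, and TATAAA in 33.1% against 12.4%. Members' windows had a median GC content of 38% against 52.4% for all promoters, so the AT-rich motifs and base composition moved together. Olfr934 held 1 TAATTA and Olfr67 1 TATAAA; Mrgprx1 and Tas1r3 held neither, which says only that these letters are not in this window.

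Whether the members carried signal beyond the spread of the spots was examined first, because these tissues are not the receptors' main sites of expression. Signal that belongs to the RNA on an array should appear on both spots of a probe, so the paired spots were correlated over the arrays of a tissue. In brain the median r was 0.42 for 199 members and 0.43 for all probes. In liver/kidney it was 0.52 for 192 members and 0.45 for all probes, and in testis 0.51 and 0.53. An r over 0.5 was found for 39.7% of brain members (41.7% of all probes), 55.2% for liver/kidney (44.1%) and 51.0% for testis (53.2%). The members' duplicate spots thus agreed about as often as those of the array at large in brain and testis and somewhat more often in liver/kidney, a description for which no test was made. Adjacent spots share local hybridisation conditions and printed material, so agreement does not separate a transcript of the named gene from cross-hybridisation.

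**Figure D1:**
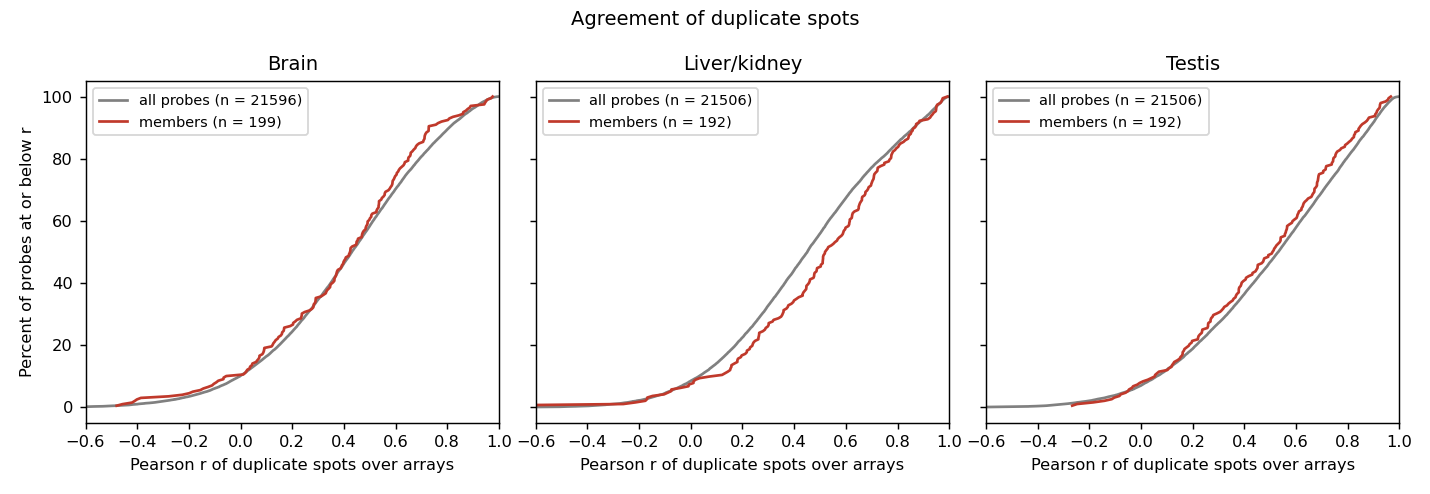
Cumulative percent of probes (y) against the Pearson correlation of their duplicate spots over the arrays of a tissue (x), for all probes (grey) and members (red). The curves nearly coincide in brain and testis (medians 0.42 against 0.43, and 0.51 against 0.53), and the members' curve lies to the right in liver/kidney (0.52 against 0.45).

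An r over 0.5 in all 3 tissues was reached by 39 of 191 members (20.4%), against 18.3% of all probes. The members with the best paired spots in brain were Olfr157 (r = 0.98), the Mas-related receptor Mrgprb3 (0.97) and Tas1r1, the umami receptor subunit (0.95). In liver/kidney they were Mrgprb3 (0.99), Tas1r1 (0.98) and Mrgprx1, a receptor of itch neurons (0.97). In testis they were Olfr13 (0.97), Olfr480 (0.96) and Mrgprx1 (0.96). At the other end, a negative r was found for 20 brain members (10.05%, all probes 10.15%). It was found for 14 members of liver/kidney (7.29%, all probes 8.48%) and 15 of testis (7.81%, all probes 7.02%). The 25 Vmn1r probes with enough arrays had a median of 0.17 in brain, and 26 had 0.50 in liver/kidney and 0.42 in testis.

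Of the 209 members, 157 could be tested in brain and 158 each in liver/kidney and testis, or 75.1% and 75.6%, against 93.4% to 94.0% of all probes. A probe was tested where every group had at least 2 values. The 51 untested in every tissue were 26 Vmn1r, 14 Olfr, 6 Vmn2r, 2 Tas2r, Tas1r1, Taar1 and Mrgpra3. The loss followed the array sets: 26 of the 29 Vmn1r probes (89.7%) had values on fewer than 10% of set 2 arrays, against 3.44% of all probes. The cas and spretus arrays, mostly set 2, therefore hold almost no values for vomeronasal receptors of class 1. Only Vmn1r49, Vmn1r51 and Vmn1r58 were tested, and none was past the threshold between groups. The untested were Vmn1r-ps8, Vmn1r10, Vmn1r11, Vmn1r13, Vmn1r14, Vmn1r15, Vmn1r25, Vmn1r29, Vmn1r30, Vmn1r40, Vmn1r42, Vmn1r43, Vmn1r44, Vmn1r46, Vmn1r47, Vmn1r52, Vmn1r53, Vmn1r54, Vmn1r56, Vmn1r62, Vmn1r63, Vmn1r65, Vmn1r148, Vmn1r171, Vmn1r172 and Vmn1r239-ps. Of the Vmn2r genes, Vmn2r37, Vmn2r88 and Vmn2r-ps60 were untested, and Vmn2r-ps54, Vmn2r1, Vmn2r10, Vmn2r26 (not in brain), Vmn2r89, Vmn2r107 and Vmn2r122 were tested without a call between groups.

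Within single sets 48 of the 51 could be compared, and limma placed none past the adjusted threshold of 0.05. Of their 446 comparisons 47 (10.5%) had an unadjusted p under 0.05. Among all probes the fewest at this cut were 593 of 21017, for cas minus mus in set 2 of brain. The most were 4282 of 21017, for spretus minus ssp in the same set. The share of all probes called in the same fits was 0.804% for mus minus dom, 0% for ssp minus dom and 0.0139% for ssp minus mus in set 1 of brain. In set 2 of brain it was 0% for mus against cas or ssp, 0.019% for spretus minus cas and for ssp minus cas, 0.0238% for spretus minus mus and 0.462% for spretus minus ssp. In testis it was 0.0093% for mus minus dom and 0% for ssp in set 1, and 0.0142% for cas minus mus, 1.21% for spretus minus cas and 1.39% for spretus minus mus in set 2. In liver/kidney it was 0.819% to 1.1% in set 1 and 0% in set 2. The nearest were Tas1r1 in liver/kidney, 0.70 ± 0.18 (SE) higher in ssp than in mus within set 1 (adjusted p = 0.0757), and Olfr45 in testis, lower by 0.52 in spretus than in cas within set 2 (value -0.52, adjusted p = 0.0758). Tas1r1 was below the pool on every dom array and every mus array of liver/kidney, at -0.57 ± 0.23 and -0.87 ± 0.29 (SD, n = 6 each), and stood at -0.17 ± 0.48 in ssp (n = 6). Taar1, the receptor of trace amines, was at -0.03 ± 0.31 in dom, 0.00 ± 0.13 in mus and 0.25 ± 0.18 in ssp (SD, n = 6 each) in that tissue. Vmn1r62, Vmn1r65 and Vmn1r148 had values only on the 3 arrays of sets 3 and 4, from -0.27 to 0.54, and were tested nowhere.

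Between the groups of mice, few members differed. For each tissue, mus was set against dom, cas against dom and mus averaged, ssp against the average of those 3 groups, and spretus against the average of all 4 others. These differences were fitted with limma over all probes of a tissue with Benjamini-Hochberg adjustment. Across these 4 comparisons and 3 tissues 16 calls were made on 16 different members. The study's design states several individual males per sub-species, and arrays of a tissue were taken as separate animals.

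In mus minus dom, 0 members were called in brain (0.223% of all probes) and testis (0% of all probes). In liver/kidney 1 was called (0.633% of members, 0.591% of all probes). At an unadjusted p under 0.05 were 17 members in brain (10.83%, all probes 9.33%) and 13 in testis (8.23%, all probes 6.59%). In cas, 0 were called in brain (0.0097% of all probes) and testis (0.0193%), and 2 in liver/kidney (1.27% of members, 1.11% of all probes). Unadjusted p was under 0.05 for 21 members in brain (13.38%, all probes 12.01%) and 6 in testis (3.797%, all probes 6.25%). In ssp, 0 were called in brain (0.097%) and testis (0%), and 1 in liver/kidney (0.633% of members, 0.0436% of all probes). Unadjusted p was under 0.05 for 20 members in brain (12.74%, all probes 15.68%) and 3 in testis (1.899%, all probes 4.86%). Spretus gave 2 members in brain (1.27%, all probes 3.95%), both lower (all probes 2.07% lower and 1.88% higher). In liver/kidney it gave 4 (2.53%, all probes 7.49%), 2 higher and 2 lower (all probes 3.03% and 4.46%). In testis it gave 6 (3.8%, all probes 9.42%), 4 higher and 2 lower (all probes 5.63% and 3.79%). The members' share was thus below the background in each spretus comparison and near it in mus and cas of liver/kidney. The median difference of the members lay between -0.04 and 0.05 in every comparison, and the median standard error was 0.07 to 0.12.

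**Figure D2:**
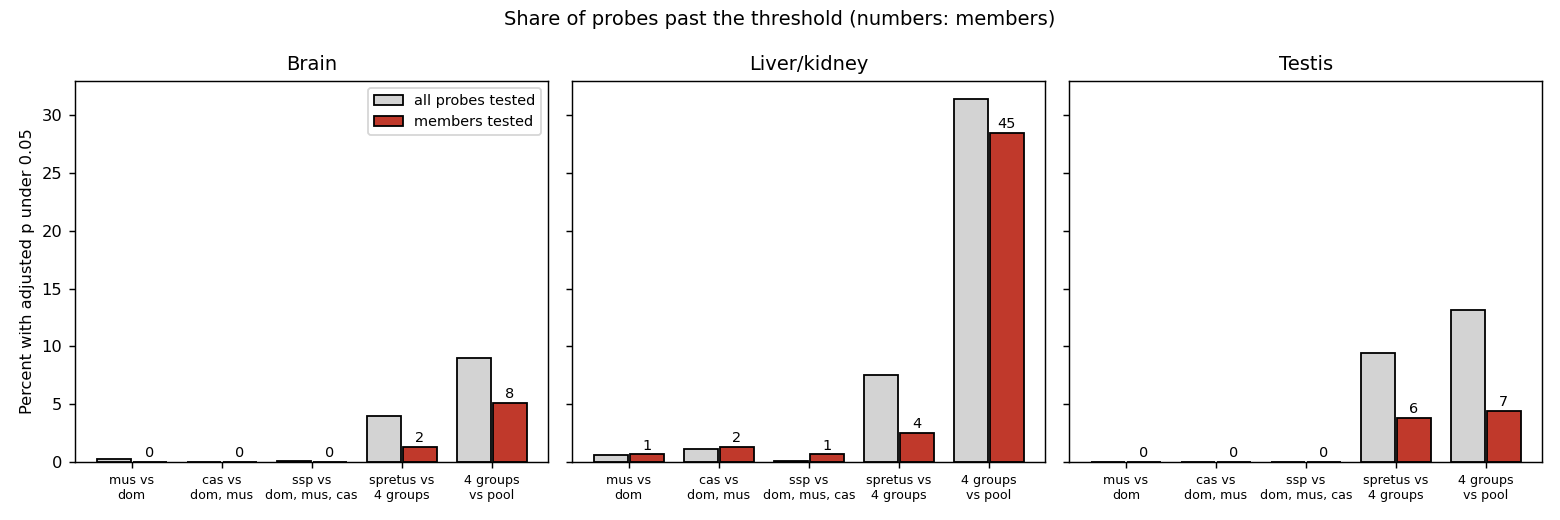
Percent of probes with adjusted p under 0.05 (y) in each comparison (x) and tissue, for all probes tested (grey) and members tested (red); numbers are members. Members stand below all probes in every spretus comparison and every comparison with the pool, for example 6 members (3.8%) against 9.42% in testis of spretus.

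The largest difference was that of Mrgprx1 in liver/kidney of cas. The 3 cas arrays stood at 0.36, 0.64 and 1.47. The dom arrays ranged from -0.73 to -0.09 (median -0.54) and the mus arrays from -0.64 to -0.30 (median -0.55), without overlap with cas. The difference was 1.33 ± 0.17 (SE; limma adjusted p = 0.00109), and 1.01 without cas 03. With the array set as a random block the difference was 1.32 with an adjusted p of 1, and cas shared no set with dom or mus here.

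Mrgprx1 also differed where set and group were separate. Within set 1, ssp exceeded dom by 0.60 ± 0.13 (adjusted p = 0.0243) and mus by 0.64 ± 0.13 (adjusted p = 0.0209). The ssp arrays ranged from -0.27 to 0.61 with a median of 0.13, and the lowest overlapped dom. Of all probes, 1.1% were called in that ssp minus dom comparison and 0.926% in ssp minus mus. Spretus was at 0.20 ± 0.05 (SD, n = 3), so dom and mus were the groups below the pool.

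Mrgprb3, of the subfamily that includes the mast cell receptor Mrgprb2, was the other member called in liver/kidney of cas. Its cas arrays stood at -1.14, -1.10 and -1.0. The dom arrays ranged from -0.73 to -0.16 (median -0.32) and the mus arrays from -0.36 to 0.37 (median 0.15), all above cas. The difference was -0.91 ± 0.17 (SE; adjusted p = 0.0118), and -0.76 with an adjusted p of 1 when the set was a random block. Spretus arrays of set 2 were also low, at -0.95 and -0.85, and the one of set 3 was at -0.20.

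Markers of the cells that carry Mas-related receptors were set beside these values. Of 8 mast cell markers 6 were tested, of 8 sensory neuron markers 5, and 0 of either list differed in liver/kidney of cas (0 and 1 at an unadjusted p under 0.05), with medians of 0.06 and -0.04. In cas 1 of 5 hepatocyte genes was called by limma, Serpina1a (0.74, adjusted p = 0.0478). That list ranged from -0.44 to 0.74 (median 0.15). Among 4 kidney tubule genes 1 was called, Umod (0.56, adjusted p = 0.0301), with a range of -0.26 to 0.56 (median 0.25). The part of these cells in the result was not tested. Of the 14 Mrgpr probes tested, the other 12 (Mrgpra1, Mrgpra2b, Mrgpra4, Mrgprb1, Mrgprb2, Mrgprb4, Mrgprb5, Mrgprd, Mrgpre, Mrgprf, Mrgprg and Mrgprh) were not past the threshold in any comparison between groups.

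Olfr934 was the member called for ssp in liver/kidney. The mus arrays lay lowest, from -1.12 to -0.49 (median -1.0), and dom from -0.77 to -0.28 (median -0.64). The cas arrays stood at -0.32, -0.16 and -0.14, and ssp ranged from -0.36 to 0.52 (median 0.07). In the order mus, dom, cas and ssp, each group overlapped its neighbour, while mus and ssp did not overlap. The difference of ssp was 0.64 ± 0.12 (SE; adjusted p = 0.0385), and the call was lost in 13 of 24 fits that left out 1 array (adjusted p up to 0.121) and with the set as a random block (0.67, adjusted p = 0.237). Within set 1 ssp exceeded mus by 1.00 ± 0.13 (adjusted p = 0.00103) and dom by 0.66 ± 0.13 (adjusted p = 0.0224).

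Olfr394 separated mus from dom in liver/kidney. All 6 mus arrays were above the pool, from 0.10 to 0.43 (median 0.24), and all 6 dom arrays below it, from -0.66 to -0.22 (median -0.57). The difference was 0.74 ± 0.17 (SE; adjusted p = 0.0494), and the adjusted p passed 0.05 in 17 of 24 fits without 1 array, up to 0.129. All these arrays were of set 1; within it the adjusted p was 0.0309 (0.819% of all probes called), and ssp was lower than mus by 0.85 (value -0.85, adjusted p = 0.0170). Olfr18 was also lower in mus than dom within set 1 (-0.37 ± 0.09, adjusted p = 0.0476; 0.104 in the fit of all arrays).

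**Figure D3:**
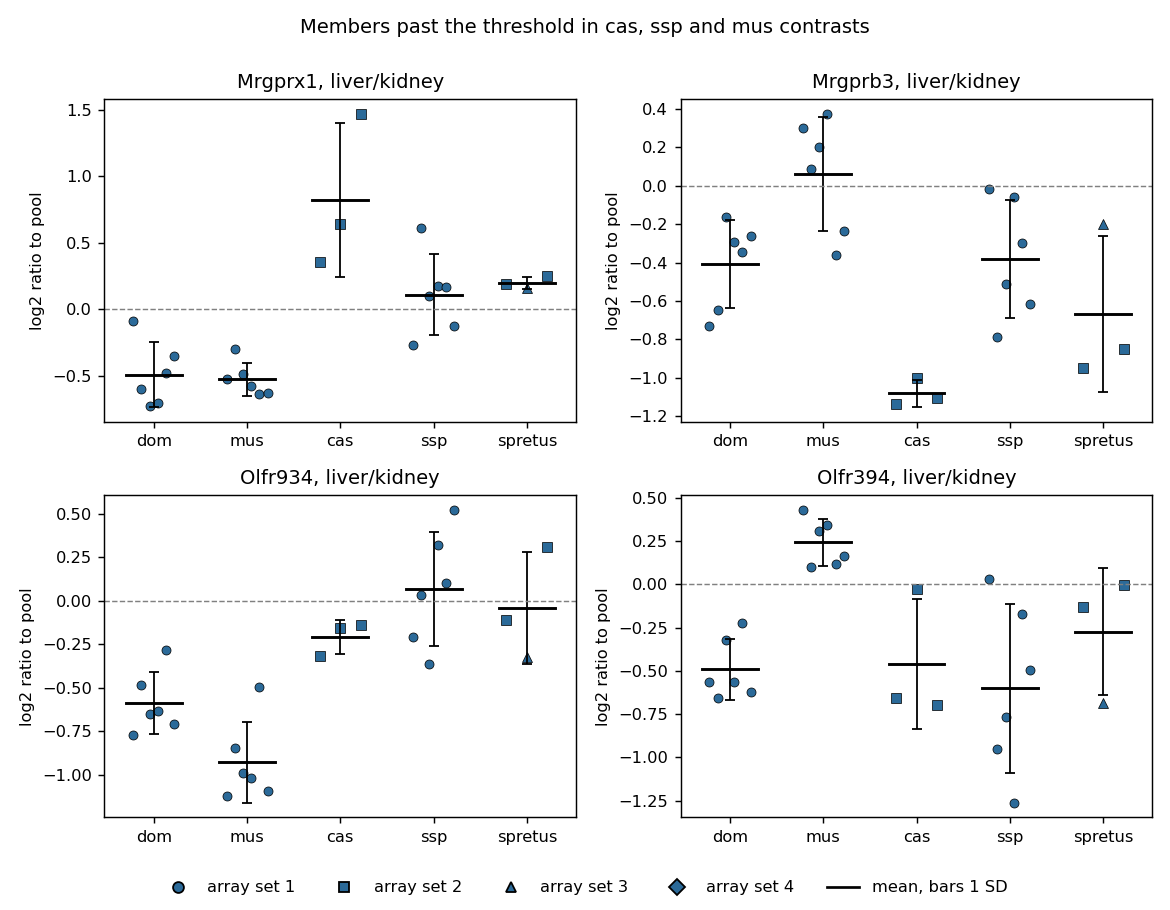
Log2 ratio to the C57BL6 pool (y) for each liver/kidney array by group (x); symbols give the array set, lines the mean and bars 1 SD. The 3 cas arrays lie above all dom and mus arrays for Mrgprx1 and below them for Mrgprb3, the 6 ssp arrays lie above all mus arrays for Olfr934, and the 6 mus arrays lie above all dom arrays for Olfr394.

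In brain the 2 members called were both lower in spretus. Olfr78, a receptor for short-chain fatty acids known from kidney and the carotid body, stood at -0.59, -0.42 and -0.21 in spretus. Group medians elsewhere were 0.14 in dom, -0.02 in mus, 0.24 in cas and 0.25 in ssp, and 1 mus array (-0.27) overlapped spretus. The difference was -0.53 ± 0.11 (SE; adjusted p = 0.0073), with an adjusted p of 0.00867 when the set was a term and 0.0879 without spretus 02. Within set 2 Olfr78 was not past the threshold: spretus differed by -0.65 ± 0.17 from ssp (adjusted p = 0.0917; 0.462% of all probes called), by -0.54 ± 0.19 from cas (adjusted p = 0.401) and by -0.54 ± 0.19 from mus (adjusted p = 0.304).

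Vmn2r29, a vomeronasal receptor of class 2, stood at -0.88, -0.54 and -0.40 in brain of spretus. The difference was -0.49 ± 0.13 (SE; adjusted p = 0.0335). It followed the array set within ssp: the 3 set 1 arrays were at 0.16, 0.17 and 0.24 and the 3 set 2 arrays at -0.11, -0.34 and -0.53. The call was lost with the set as a term (adjusted p = 0.103), as a random block (0.0655) and without spretus 03 (-0.35, adjusted p = 0.278) or spretus 01 (0.101). In testis the 2 mus arrays of set 2 were likewise at -0.72 and -0.83, while the 4 of set 1 lay between -0.08 and 0.15.

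No other member passed in brain. The smallest p values were those of Olfr70 in mus (-0.62 ± 0.15 against dom, adjusted p = 0.0784, no overlap), Olfr71 in cas (-0.37 ± 0.09, adjusted p = 0.103) and Olfr970 in ssp (-0.30 ± 0.08, adjusted p = 0.121). The paired spots of Olfr71 correlated at -0.20 in brain, those of Olfr70 at 0.89 and those of Olfr970 at 0.41. Within set 1 Olfr48 was lower in mus than in dom (-0.53 ± 0.10, adjusted p = 0.0323; 0.804% of all probes called).

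In testis all 6 calls were for spretus, led by Tas1r3, the subunit shared by the sweet and umami receptors and known from testis and sperm. The spretus arrays stood at 0.52, 0.61 and 0.65. The highest array of the other groups was a mus array at 0.39, and group medians were 0.08 in dom, 0.03 in mus, -0.06 in cas and -0.11 in ssp. The difference was 0.66 ± 0.13 (SE; adjusted p = 0.00182), and it stayed past the threshold in 24 of 24 fits without 1 array (0.63 to 0.69). Within set 2 spretus exceeded cas by 0.69 ± 0.13 (adjusted p = 0.0470; 1.21% of all probes called). It exceeded the 2 mus arrays of that set by 0.45 ± 0.14, not past the threshold (adjusted p = 0.195; 1.39% of all probes called). With quantile normalisation the difference of spretus from the 4 other groups was 0.44 (adjusted p = 0.0684). With the set as a term it was 0.53 (adjusted p = 0.0490).

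Tas1r3 was at 0.00 ± 0.09 in brain and -0.05 ± 0.10 in liver/kidney of spretus (SD, n = 3 each). The effect of spretus was larger in testis than in liver/kidney by 0.76 ± 0.17 (adjusted p = 0.00216; 5.8% of all probes called) and than in brain by 0.60 ± 0.17 (adjusted p = 0.0337; 2.75% called). With quantile normalisation both calls were lost, at 0.49 (adjusted p = 0.0826) and 0.38 (adjusted p = 0.296). Paired spots of Tas1r3 correlated at 0.91 in testis. The median correlation of the 3 Tas1r probes was 0.24 in brain and 0.65 in liver/kidney. Tas1r2, the sweet receptor partner of Tas1r3, differed by -0.09 ± 0.13 in testis of spretus (adjusted p = 0.752). The Tas2r bitter receptors tested (Tas2r105, Tas2r108, Tas2r116 and Tas2r140) ranged from -0.12 to 0.22 there with 0 called, and Tas2r103 and Tas2r119 were tested only within sets.

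**Figure D4:**
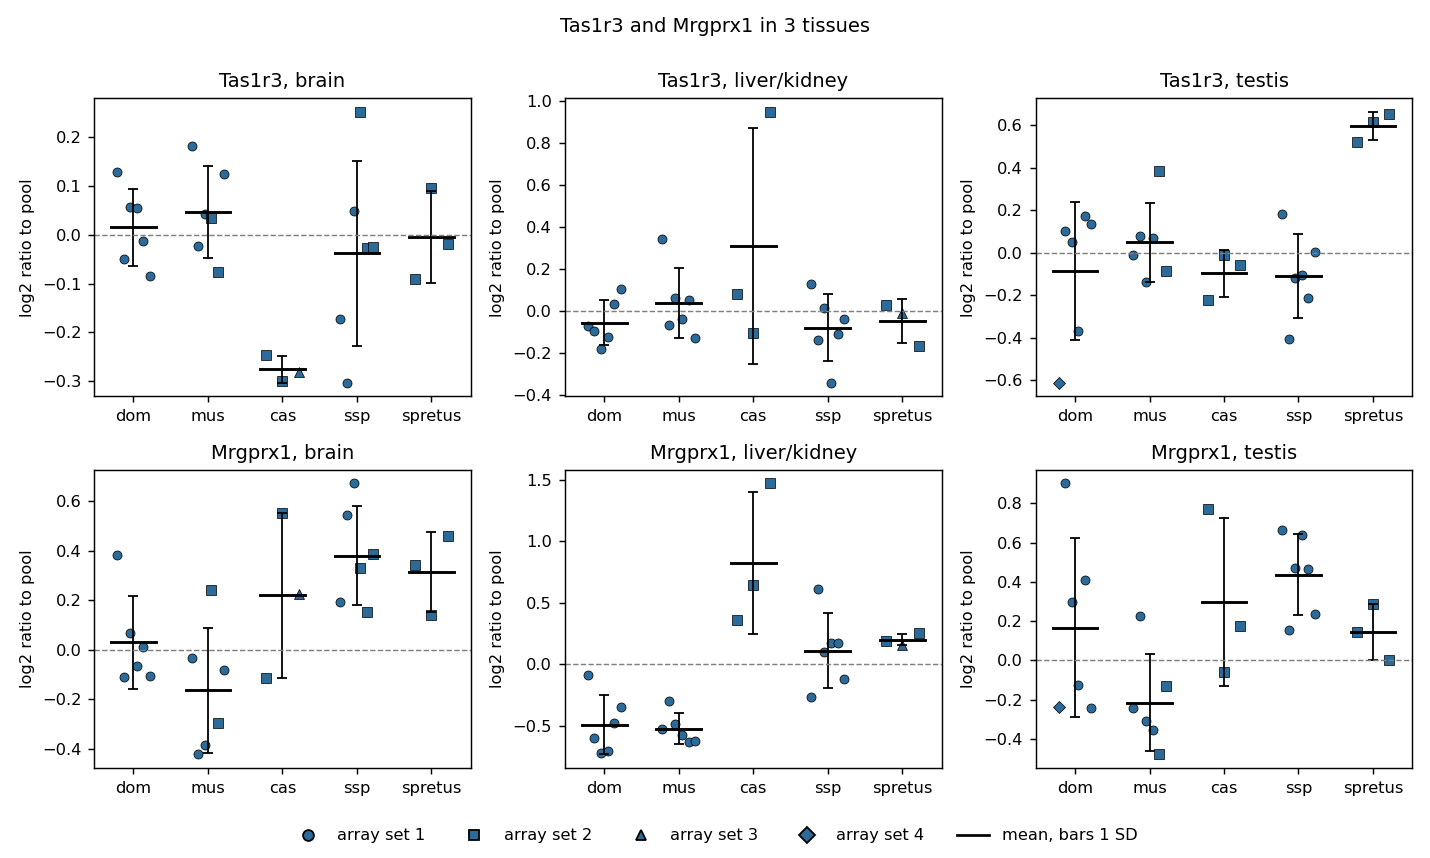
Log2 ratio to the pool (y) of Tas1r3 (upper row) and Mrgprx1 (lower row) by group (x) in brain, liver/kidney and testis; symbols give the array set, lines the mean and bars 1 SD. Spretus stands apart for Tas1r3 in testis (0.52 to 0.65), and cas for Mrgprx1 in liver/kidney (0.36 to 1.47).

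The other 5 testis calls were less even. Olfr959 was lower (-0.32 ± 0.07, adjusted p = 0.0055), with spretus at -0.41, -0.26 and -0.13. The call was lost without spretus 02 (adjusted p = 0.0944), with second spots (0.0964), with quantile normalisation (0.058) and with the set as a term (0.142). Vmn2r42 was lower too (-0.32 ± 0.08, adjusted p = 0.00786), at -0.68, -0.45 and -0.40, and its adjusted p was 0.395 with the set as a term. In limma fits its call was also lost without spretus 01 (adjusted p = 0.0858) and with first spots (0.0657). With quantile normalisation it was -0.20 (limma adjusted p = 0.184). For Olfr1264 the spretus arrays were spread over 0.05, 0.40 and 1.35; the difference of 0.61 ± 0.14 (adjusted p = 0.00573) became 0.24 without spretus 03. Only its first spots gave 0.29 and only its second spots 0.95. With the set as a term its adjusted p was 0.110.

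Olfr150 (0.40 ± 0.11, adjusted p = 0.0231) and Olfr50 (0.47 ± 0.14, adjusted p = 0.0388) had duplicate spot correlations of 0.03 and 0.17 in testis. Olfr150 stood at -0.07, 0.46 and 0.84 in spretus and fell to 0.19 without spretus 02; without spretus 03 its adjusted p was 0.0912. Olfr50 stood at 0.09, 0.23 and 1.27 and was 0.09 without spretus 01. The Olfr50 call rested on spretus 01, and only its first spots gave 0.90 and only its second spots 0.05. For Olfr150 first spots gave 0.29 (adjusted p = 0.245) and second spots 0.52 (adjusted p = 0.118), neither past the threshold. With the set as a term the adjusted p was 0.143 for Olfr150 and 0.203 for Olfr50. Of 8 germ cell markers, Odf1 (-0.35) and Prm1 (-0.55) were called lower in testis of spretus. The list ranged from -0.55 to 0.51 (median -0.07), and the part of germ cell content was not tested. Members with the smallest p in the other testis comparisons were Olfr47 in mus (-0.56, adjusted p = 0.705), Olfr17 in cas (0.28, adjusted p = 0.563) and Mrgprx1 in ssp (0.35, adjusted p = 0.973).

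In liver/kidney of spretus Olfr157 (-0.50 ± 0.12, adjusted p = 0.0121) and Olfr876 (-0.54 ± 0.13, adjusted p = 0.0151) were lower. Olfr52 (0.30 ± 0.08, adjusted p = 0.0181) and Olfr60 (0.50 ± 0.15, adjusted p = 0.0404) were higher. The low value of Olfr876 lay mostly on spretus 02 (-1.20; the others -0.26 and -0.05), the only set 3 array of the tissue, and the difference was -0.19 without it. Olfr157 stood at -0.48 on that array and at -0.11 and 0.01 on the others, Olfr52 at 0.21 (0.50 and 0.09) and Olfr60 at 0.49 (0.21 and 0.13). Without spretus 02 the adjusted p was 0.146 for Olfr157, 0.292 for Olfr876 and 0.237 for Olfr60; Olfr52 lost its call without spretus 01 (0.19, adjusted p = 0.173). With the set as a random block all 4 calls were lost (adjusted p 0.145 to 0.378), while the differences were -0.51 for Olfr157, -0.55 for Olfr876, 0.30 for Olfr52 and 0.51 for Olfr60. Within set 2, limma called 0 members for spretus minus cas (0% of all probes). At an unadjusted p under 0.05 were 12 of 172 members and 1593 of all 21097 probes. Hepatocyte markers moved with spretus as well: 3 of 5 were lower, Ttr by -1.22, Alb by -0.63 and Fgb by -0.42 (highest of the list 0.02). Among 4 kidney tubule genes 1 was called, Umod, 0.72 higher, and the lowest of that list was -0.06. The part of these cells in the result was not tested.

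**Figure D5:**
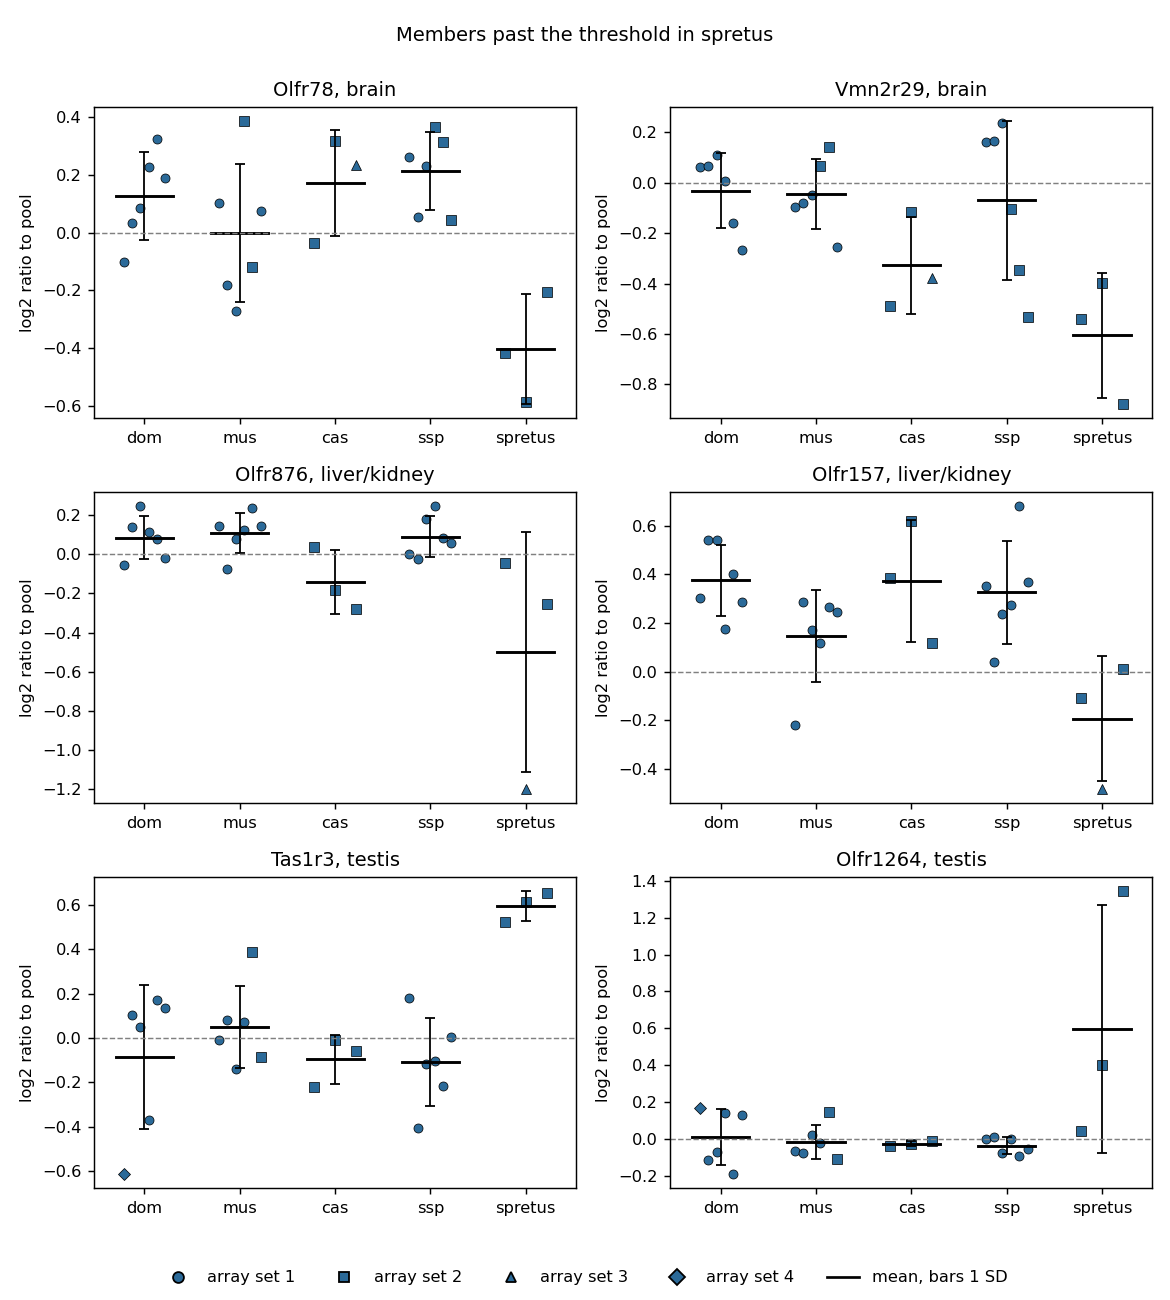
Log2 ratio to the pool (y) by group (x) for 6 members called in spretus; symbols give the array set, lines the mean and bars 1 SD. The 3 spretus arrays of Tas1r3 lie together above all others, whereas the spretus means of Olfr876 and Olfr1264 rest largely on single arrays (-1.20 and 1.35).

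A test for any difference among the 5 groups called 3 members in brain (1.91%, all probes 3.28%), 10 in liver/kidney (6.33%, all probes 6.51%) and 1 in testis (0.633%, all probes 4.29%). In brain these were Olfr70, Olfr78 and 1 of the 2 probes of Olfr139, and in testis Tas1r3. In liver/kidney they were Mrgprx1, Olfr934, Mrgprb3, Olfr394, Olfr18, Vmn2r29, Olfr51, Olfr22-ps1, Olfr157 and Olfr12. Vmn2r29 was at -1.15 ± 0.39 in cas and -1.13 ± 0.35 in spretus (SD, n = 3 each) against -0.57 ± 0.52 in dom, -0.22 ± 0.54 in mus and -0.08 ± 0.21 in ssp (n = 6 each), the 3 groups of set 1.

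The average of dom, mus, cas and ssp was also set against the pool. The pool is 1 control without its own spread, and a dye effect of a probe cannot be told apart from a difference here. In brain 8 members were past the threshold (5.1%, all probes 8.95%), in liver/kidney 45 (28.5%, all probes 31.4%) and in testis 7 (4.43%, all probes 13.1%). With the array set as a random block these became 0, 1 and 2 (share of all probes in that fit not given here). Of the members' calls, 7 of 8 in brain were lower, as were 29 of 45 for liver/kidney and 5 of 7 for testis. Of all probes, 3.67%, 14% and 8.75% were called lower and 5.28%, 17.4% and 4.36% higher, so that lower calls were also the more frequent among all probes of testis; the difference in split was not tested.

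Olfr67 was below the pool in all 3 tissues. In liver/kidney its 21 musculus arrays were all negative and the group means were -0.76 ± 0.12 in dom, -0.94 ± 0.21 in mus, -0.97 ± 0.11 in cas and -0.95 ± 0.27 in ssp (SD). The mean was -0.90 ± 0.07 (SE; adjusted p = 8.28e-10), and 0.00385 with the set as a random block, the 1 call left in that tissue. It was -0.36 ± 0.07 in brain (18 of 21 arrays negative; adjusted p = 0.00264) and -0.25 ± 0.04 in testis (20 of 21; adjusted p = 0.00034). Spretus means were -0.55 for brain, -0.84 for liver/kidney and -0.59 for testis.

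Vmn2r42 was the other member called in all 3 tissues, at -0.15 ± 0.03 (brain), -0.09 ± 0.03 (liver/kidney) and -0.19 ± 0.03 (testis) (SE; adjusted p 0.00528, 0.0181 and 6.76e-05). Its second probe was tested only within sets. In brain Olfr18, Olfr56, Olfr876, Olfr55 and Olfr26 were lower too (-0.21 to -0.10) and Olfr57 higher (0.12). Their paired spots correlated at -0.13 for Olfr876, -0.07 for Olfr26 and 0.09 for Olfr56, and at 0.43 to 0.72 for the others. Olfr55 was below the pool on 12 of 21 arrays. Olfr55 and Olfr26 each lost the call in 19 of 24 fits without 1 array, and Olfr57 in 13. In testis Olfr30, Vmn2r29 and Olfr155 were lower (-0.22 to -0.14), and Olfr48 (0.17) and Olfr60 (0.14) higher. Olfr48 and Olfr60 lost their calls in 14 and 16 of 24 fits without 1 array.

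In liver/kidney the lowest after Olfr67 were Olfr29-ps1 (-0.56), Vmn2r29 (-0.51), Mrgprb3 (-0.45), Olfr804 (-0.44), Olfr934 (-0.41) and Olfr263 (-0.40). Olfr394, 1 probe of Olfr2, Olfr30, Olfr1355, Olfr1507, Olfr71, Tas2r116, Olfr18, Olfr59, Olfr60, Olfr51, Tas2r140, Olfr951, Olfr1509, Vmn1r51, Olfr31, Mrgprb5, Olfr149, Olfr75-ps1, Vmn2r42, Vmn2r122 and Olfr58 followed, from -0.33 to -0.06. Among the lower calls, Vmn1r51 had the lowest duplicate spot correlation (-0.09). Olfr51 was below the pool on 12 of 21 arrays, Olfr394 on 14 and Olfr934 on 17. The mean of Olfr394 was above the pool in mus (0.24) and below it in dom (-0.49). Olfr58, Vmn2r122, Tas2r140 and Olfr31 lost their calls in 11, 15, 16 and 17 of 24 fits without 1 array. Higher were Olfr13 (0.43, 21 of 21 arrays), Olfr48 (0.35), Olfr672 (0.34, 21 of 21), Olfr157 (0.30), Olfr148, Olfr47, Olfr870, Olfr744, Mrgprf, Olfr12, Olfr1508, Olfr15, Olfr140, Olfr395, Mrgpre and Olfr955 (0.12). Olfr140 was above the pool on 13 of 21 arrays, and Olfr955 lost its call in 10 of 24 fits without 1 array.

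Where a gene had more than 1 probe, the probes did not always share a value. Olfr2, the I7 receptor for octanal, had 3 probes: against the pool in liver/kidney they gave -0.32 ± 0.04, -0.04 ± 0.03 and -0.07 ± 0.04, of which the first was called. The duplicate spot correlations of these 3 probes there were 0.62, 0.32 and 0.26. Olfr139, Vmn2r42, Vmn2r89 and Vmn2r122 had 2 probes each, 1 tested over all groups and 1 only within sets. Probes of near-identical receptor paralogues can share hybridisation, so the named gene is uncertain for members of such clusters.

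The effect of cas differed between liver/kidney and brain for 7 of 157 members (4.46% of members against 1.68% of all probes), 6 of them more positive in liver/kidney: Mrgprx1, Olfr51, Olfr71, Olfr60, Olfr1355 and Tas1r3. With quantile normalisation 1 of these calls was left, Olfr51 (0.70, adjusted p = 0.0441). Tas1r3 in cas rested on 1 liver/kidney array (0.95, the others 0.08 and -0.10). In brain the paired spots of Olfr71 correlated at -0.20. Between testis and liver/kidney the effect of cas differed for 1 member, Mrgprx1 (-1.01 ± 0.25, adjusted p = 0.0451; 0.296% of all probes; -0.98 and adjusted p = 0.0722 with quantile normalisation), and between testis and brain for 0 (0.00486%; 8 at an unadjusted p under 0.05). The effect of spretus differed for 1 member between liver/kidney and brain (1.63% of all probes), 3 between testis and brain (2.75%) and 7 between testis and liver/kidney (5.8%). With quantile normalisation 1 of these calls was left, Olfr959 in testis minus liver/kidney (-0.41, adjusted p = 0.0373). For mus 0 members differed between tissues by limma (0.0389% of all probes for liver/kidney minus brain, 0% for testis minus brain and 0.165% for testis minus liver/kidney), with 12, 4 and 11 at an unadjusted p under 0.05. For ssp 0 differed (0.0146%, 0% and 0.0146%), with 16, 13 and 14. The share of all probes at this unadjusted cut was not counted for the tissue differences.

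Genes that transduce the signal of these receptors were examined as a list of 57, of which 28 were tested in brain and liver/kidney and 29 in testis. With limma 0 differed in mus in brain, liver/kidney or testis (0.223%, 0.591% and 0% of all probes). In these tissues 4, 0 and 2 probes of the list had an unadjusted p under 0.05 (9.33%, 6.32% and 6.59% of all probes). In brain 1 was higher in ssp, Lhx2, a homeodomain factor for receptor choice (0.37 ± 0.07, adjusted p = 0.0485), and 1 higher in spretus, P2rx3, the ATP receptor of sensory nerves (0.41 ± 0.09, adjusted p = 0.0105). In liver/kidney the phosphodiesterase Pde2a was higher in cas (0.67 ± 0.14, adjusted p = 0.0256) and lower in spretus (-0.66 ± 0.14, adjusted p = 0.00541), and the carbonic anhydrase Car2 was lower in spretus (-0.53 ± 0.09, adjusted p = 0.000957). In testis P2rx3 was higher (0.26 ± 0.07, adjusted p = 0.0253) and the taste phospholipase Plcb2 lower (-0.29 ± 0.08, adjusted p = 0.0293) in spretus. No transduction gene of testis was past the threshold with first spots, with the set as a term or random block, or with quantile normalisation, and none of brain with first spots. In liver/kidney 1 was left with the set as a random block. The 2 calls of 28 genes in liver/kidney of spretus stood beside 7.49% of all probes called, the 2 of 29 in testis beside 9.42% and the 1 of 28 in brain beside 3.95%. The 1 call in liver/kidney of cas stood beside 1.11% and that in brain of ssp beside 0.097%. Several of these genes also serve other cells; the medians of the list lay between -0.10 and 0.04. Of the markers of olfactory epithelium (5 of 7 tested) and olfactory bulb (5 of 8), 0 differed between groups in any tissue by limma, with at most 2 of a list at an unadjusted p under 0.05.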

How the data were processed

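Total RNA of single mice was hybridised against tissue pools on 72 two-colour spotted arrays. The values deposited by the authors are log ratios, read as log2; how spots were scanned, background-corrected or normalised is not given in the sources used here. Rows of 31 spots held 15 duplicate pairs, which were averaged (1488 single spots left out; 1 probe repeated on 232 pairs was averaged), giving 22089 probes: 15801 with 1 gene symbol, 294 with several and 5994 unlisted. Probe genes came from the platform annotation; 5 member probes with several symbols, and 1 receptor gene not reported here, were left out. Arrays were centred on their median (-0.04 to 0.06 before centring). Groups came from the titles. limma 3.58.1 (R 4.3.3) fitted 5 group means per tissue, with Benjamini-Hochberg adjustment over all probes tested and a threshold of 0.05; tissue differences used all 72 arrays in 1 fit. The fits were tested on simulated data. The number of arrays limits the precision. Named members were all those past the threshold, the smallest p otherwise, the 3 best duplicate correlations per tissue, genes with several probes and members outside Olfr. The members and lists were chosen with earlier results of these data known. Array sets came from average-linkage clustering of missing spots (distance 0.6). Alternatives were single spots, quantile normalisation, no centring, array weights, probe filters, each array left out, replicate numbers and array sets as blocks. Within a tissue the numbers in the titles did not pair the arrays: residuals of same-numbered arrays correlated at a median of -0.01, 0.00 and -0.03 in brain, liver/kidney and testis. The labels do not say whether a number marks the same animal across tissues; a fit with it as a block was an alternative.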

Additional observations from a re-analysis of the deposited data

Results flagged for a closer look

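3 of the 54 groups of 6 arrays examined for members named in the report held 1 array far from the rest, where chance gives about 1 in 20. These were mus 2 for Olfr157 in liver/kidney (-0.22), dom 10 for Olfr48 in brain (0.39) and dom 13 for Olfr959 in testis (-0.24).

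Members whose effect in a group differed between tissues by the test of that difference (limma, 72 arrays) are given as differences of log2 differences. For cas in liver/kidney minus brain these were Mrgprx1 (1.04), Olfr51 (0.78), Olfr71 (0.71), Olfr60 (0.69), Olfr1355 (0.68), Tas1r3 (0.63) and Olfr5 (-0.38), and for testis minus liver/kidney Mrgprx1 (-1.01). In liver/kidney these cas values cannot be told apart from the array set. With quantile normalisation only the Olfr51 call was left (0.70, limma adjusted p = 0.0441).

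For spretus in liver/kidney minus brain it was Olfr876 (-0.60). In testis minus brain these were Olfr480 (-0.81), Tas1r3 (0.60) and Olfr1264 (0.57). In testis minus liver/kidney these were Olfr959 (-0.56), Tas1r3 (0.76), Olfr714 (-0.68), Olfr150 (0.60), Olfr876 (0.58), Olfr1264 (0.59) and Mrgpra2b (0.76). With quantile normalisation only the Olfr959 call was left (-0.41, limma adjusted p = 0.0373). Spretus in liver/kidney cannot be told apart from the array set. The spretus difference of Olfr876 in liver/kidney was -0.19 without spretus 02. That of Olfr1264 in testis was 0.24 without spretus 03. Paired spots of Olfr150 correlated at 0.03 in testis.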

How the results depend on the processing

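Counts of members past the threshold changed as follows, and the causes were not tested. The shares of all probes called under each alternative, or without 1 array, are not given here. The counts therefore do not show whether members changed more than other probes. With array weights, counts were 3 in brain and 3 in liver/kidney for mus, 2 in liver/kidney for ssp, 12, 1 and 15 for spretus (brain, liver/kidney, testis; 2, 4 and 6 otherwise), 12 in testis against the pool, and 17 in brain and 9 in testis among the 5 groups. With only first spots they were 0, 4 and 7 in liver/kidney for mus, cas and spretus, 1 in brain for spretus, and 5 in liver/kidney among groups. With only second spots they were 1 in brain for spretus, 0 in liver/kidney for ssp, 5 in brain and 4 in testis against the pool, and 0, 6 and 2 among groups. With the array set as a term they were 1 in brain for mus, and 4 in brain and 2 in testis for spretus. With the set as a random block they were 0 in liver/kidney for cas, ssp and spretus, 1 in brain for spretus, 0, 1 and 2 against the pool, and 5, 3 and 0 among groups. Without centring they were 5 in brain and 3 in testis among groups. With quantile normalisation they were 4 in brain and 2 in liver/kidney for mus, 2 in liver/kidney and 1 in testis for spretus, 7 in brain and 0 in testis among groups, and 2, 1 and 1 for tissue differences of mus, cas and spretus.

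The replicate number as a block left 0 members for mus in liver/kidney (1 otherwise) and 1 transduction gene in brain; same-numbered arrays of a tissue share only a number, and own-number arrays correlated best for 1, 1 and 4 of 20 arrays (brain, liver/kidney, testis). Transduction genes past the threshold numbered 5, 1 and 4 (brain, liver/kidney, testis) with array weights, and 1 in brain with complete probes. With first spots they numbered 0 in brain and 0 in testis, and with second spots 1 in brain. With the set as a term 0 were left in testis, with it as a random block 1 in liver/kidney and 0 in testis, and with quantile normalisation 1 in brain and 0 in testis.

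Leaving out 1 array gave, in brain, 0 to 2 members for mus, 0 to 12 for cas, 0 to 3 for ssp, 1 to 5 for spretus, 4 to 11 against the pool and 0 to 16 among groups. In liver/kidney these were 0 to 1, 2 to 3, 0 to 2, 3 to 11, 39 to 52 and 6 to 12. In testis they were 0 to 0 for mus, cas and ssp, 5 to 14 for spretus, 4 to 9 against the pool and 0 to 5 among groups. Transduction genes ranged from 0 to 5, 2 to 4 and 0 to 4 in the 3 tissues. Of the 16 calls between groups, 13 were lost in at least 1 such fit, and no called difference reversed sign under any alternative run. Ratios without intensities do not show which probes lie at background.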
